A study of Mus musculus with 4 samples.

Results

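Small RNA sequencing of CD4+ T cells with and without Cbl-b, stimulated or not, allows a comparison of the genotype ratio of each miRNA between the activated and the resting state. For each miRNA the ratio of Cbl-b-/- to wild type (WT) was taken once in stimulated and once in unstimulated cells, and the second log2 ratio was subtracted from the first. The result is called the difference between states here. A value above 0 means that Cbl-b-/- exceeded WT by more after stimulation, which is the same as a higher stimulated over unstimulated ratio in Cbl-b-/- than in WT. All 4 of the 4 libraries of the series enter this value: Cbl-b-/- stimulated, WT stimulated, Cbl-b-/- unstimulated and WT unstimulated, with 1 library in each group. The cells were CD4+ T cells of C57BL/6 mice, either WT or deficient in Cbl-b, kept in serum-containing medium. Stimulated cells received an antibody to CD3 for 48 h, with no antibody to CD28 named, and unstimulated cells were described as naive. The sources used here do not say how many mice stood behind a library or how long the unstimulated cells were cultured.

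A miRNA is a short RNA, cut as a 5p or 3p arm from a hairpin precursor, that directs repression of messenger RNAs which pair with its seed, the bases near its 5′ end. Cbl-b is an E3 ubiquitin ligase that holds back signals of the T cell receptor (TCR), above all when costimulation through CD28 is missing. Several miRNAs are known to be made in larger amounts after TCR signals, among them miR-155, miR-31, miR-21a, miR-132, miR-212, miR-210 and the miR-183 group, and others such as miR-150, miR-181a and miR-146a mark resting or developing T cells or restrain NF-kB signalling.

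The sequences of the miRNAs that carry the main differences are shown first, 5′ to 3′, with the seed (bases 2 to 8) in capitals. They were taken from RefSeq (build GRCm38.p6), which held 181 of the 223 miRNAs over the level minimum. The first set holds 6 of the 7 miRNAs discussed first, namely both arms of miR-155 and of miR-31, miR-451a and miR-6240.
miR-155-5p: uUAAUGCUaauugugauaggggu
miR-155-3p: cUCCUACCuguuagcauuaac
miR-31-5p: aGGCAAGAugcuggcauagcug
miR-31-3p: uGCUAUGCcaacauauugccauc
miR-451a: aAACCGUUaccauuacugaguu
miR-6240: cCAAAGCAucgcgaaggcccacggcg
The second set shows pairs and a trio with a common seed, because their members are compared below. miR-221-3p and miR-222-3p come from 1 cluster, miR-27a and miR-27b from separate clusters, and miR-29a and miR-29c from separate clusters that each hold a copy of miR-29b.
miR-221-3p: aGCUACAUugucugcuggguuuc
miR-222-3p: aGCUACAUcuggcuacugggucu
miR-29a-3p: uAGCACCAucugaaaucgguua
miR-29b-3p: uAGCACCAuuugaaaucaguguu
miR-29c-3p: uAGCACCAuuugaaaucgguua
miR-27a-3p: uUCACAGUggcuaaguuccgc
miR-27b-3p: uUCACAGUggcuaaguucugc

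The libraries held between 11561693 and 15436447 reads of 1091 known mature miRNAs. Levels are given as counts scaled to a library sum of 1e+06 (CPM), and the 95% intervals cover the counting error of reads only. With 4 libraries for 4 groups a model of the difference between states has 0 residual degrees of freedom, so no p-value is given, and the libraries are compared rather than the genotypes. A miRNA passed the rule of size when its difference was at least 1 in log2 (2-fold), its mean level over the libraries was at least 50 CPM and its interval excluded 0. The blood cell miRNAs were high, miR-142a-5p at 104582 to 187887 CPM and the lymphocyte miRNA miR-150-5p at 20197 to 53330 CPM. CD4 itself is a protein marker that miRNA libraries do not show. Several lists for other cells were low in all 4 libraries, with summed levels of 69.4 to 485 CPM for myeloid, 71.6 to 334 CPM for endothelial and megakaryocyte, and 91.9 to 307 CPM for stromal miRNAs. Like these 3 sums, that of the erythroid list differed between the libraries. The erythroid list, described below, summed to 390 to 1653 CPM. Part of that sum comes from reads counted for both miR-486a-5p and miR-486b-5p. The epithelial list summed to 548 to 1082 CPM, and the liver and muscle lists to at most 0.583 CPM. Epithelial miR-205-5p had 0 reads in both stimulated libraries. In bulk RNA fewer cells of a type and less RNA per cell cannot be told apart.

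Across the 223 miRNAs over the level minimum, most differences were small, and so were most genotype ratios. The median difference was -0.04 with a robust SD of 0.21, and 198 of the 223 (88.8%) lay within 1.5-fold. The genotype log2 ratios themselves had a robust SD of 0.25 in stimulated and 0.21 in unstimulated cells. Their direction was opposite in the 2 states for 71 of the 223, of which 29 had Cbl-b-/- higher with and lower without stimulation, and 42 the reverse. A total of 5 miRNAs passed the rule with a higher difference, which is 2.24% of those measured, and 1 passed it with a lower one, 0.448%, or 2.69% in all. The higher ones were miR-6240, miR-451a, both arms of miR-31, and miR-155-3p, and the lower one was miR-6539. At a limit of 1.5-fold, 21 were higher (9.42%) and 4 lower (1.79%), or 11.2% in all. The spread depended on level: the robust SD was 0.34 for 99 miRNAs at 50 to 200 CPM, where 4 of the 6 lay, and 0.16 for 18 miRNAs above 10000 CPM, where 0 passed. The interval excluded 0 for 154 of the 223 (69.1%), so counting error was smaller than most differences, while the error between libraries was not measured. The scaling of the libraries moves every difference by 1 amount. With library sums 41.3% of differences were above 0, with DESeq2 size factors, which add 0.11 to each, 61.7%, and without the 10 most abundant miRNAs in the sums 29.3%. Small differences therefore carry no sign of their own and are read against the median of all miRNAs.

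**Figure D1:**
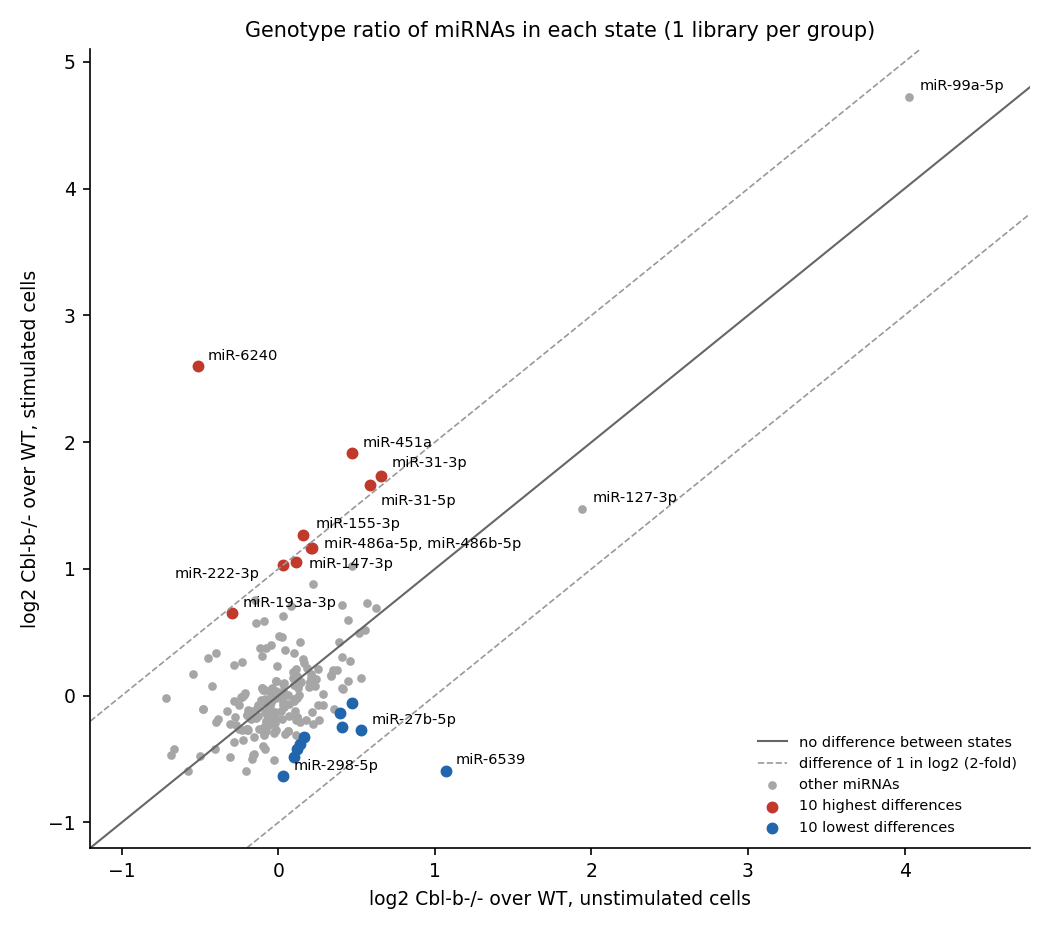
Log2 ratio of Cbl-b-/- over WT in stimulated cells (vertical axis) against that in unstimulated cells (horizontal axis) for 223 miRNAs, each point from 1 library per group. The solid line marks equal ratios and the dashed lines a difference of 1 in log2; 5 points lie above the upper dashed line and miR-6539 below the lower one, while miR-99a-5p and miR-127-3p are far from 0 on both axes and between the lines.

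Both arms of miR-155, a miRNA that T cells need for full responses and that represses inhibitors of cytokine and phosphoinositide signalling such as Socs1 and Inpp5d, had positive differences. miR-155-3p stood at 1141 CPM in Cbl-b-/- stimulated, 472 in WT stimulated, 17.5 in Cbl-b-/- unstimulated and 15.7 CPM in WT unstimulated cells. The genotypes were close without stimulation and far apart after it. Its difference was 1.11 (95% counting interval 0.85 to 1.37), made of a genotype log2 ratio of 1.27 in stimulated and 0.16 in unstimulated cells. miR-155-5p, the far more abundant arm, stood at 51621 CPM in Cbl-b-/- and 25337 in WT stimulated cells, and 3112 in Cbl-b-/- and 2246 CPM in WT unstimulated cells. Its difference of 0.56 (0.54 to 0.58) was below the 2-fold limit. The Cbl-b-/- library was higher already without stimulation, with a genotype log2 ratio of 0.47, against 1.03 with it. The hairpin lies at chr16:84714140-84714204 on the plus strand, in an exon of the noncoding gene Mir155hg.

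miR-31, known in T cells as an activation-induced miRNA, showed the same value in both arms. miR-31-5p stood at 2032 CPM in Cbl-b-/- stimulated, 641 in WT stimulated, 77.8 in Cbl-b-/- unstimulated and 51.8 CPM in WT unstimulated cells. The Cbl-b-/- library was higher in both states, by log2 1.67 with and 0.59 without stimulation, which left a difference of 1.08 (0.94 to 1.22). miR-31-3p stood at 201 CPM in Cbl-b-/- and 60.4 in WT stimulated cells, and 3.78 in Cbl-b-/- and 2.40 CPM in WT unstimulated cells, with a difference of 1.08 (SE 0.31). The 3p arm had only 53 reads in the Cbl-b-/- and 37 in the WT unstimulated library. The stimulated over unstimulated log2 ratio of miR-31-5p was 4.71 in Cbl-b-/- and 3.63 in WT cells. Both arms sat so near the limit that sums without the 10 most abundant miRNAs brought them to 0.997 and 0.996, just under it. The hairpin lies at chr4:88910557-88910662 on the minus strand, in an exon of the transcript AL805899.1.

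Among the others past the rule, miR-6240 had the largest difference of the 223. It stood at 575 CPM in Cbl-b-/- stimulated, 94.7 in WT stimulated, 6.21 in Cbl-b-/- unstimulated and 8.88 CPM in WT unstimulated cells. Cbl-b-/- was lower than WT without stimulation (log2 -0.52) and higher with it (2.60), a difference of 3.12 (2.72 to 3.52). Its hairpin is annotated at chr5:114851948-114852064 on the plus strand with no host gene, and at 26 bases its mature form is the longest of the sequences shown. miR-6539, for which no sequence is shown, went the other way. It stood at 84.1 CPM in Cbl-b-/- and 127 in WT stimulated cells, and 2.85 in Cbl-b-/- and 1.36 CPM in WT unstimulated cells, with a difference of -1.66 (-2.43 to -0.89). The value rests on 40 reads in the Cbl-b-/- and 21 in the WT unstimulated library. With TMM or DESeq2 size factors its mean level was 44.1 CPM, under the minimum, and it was no longer counted. Whether the reads counted for miR-6240 and miR-6539 came from their hairpins or from other RNA was not tested.

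miR-451a, a miRNA of red blood cells that is cut by Argonaute 2 in place of Dicer, was the remaining one. It stood at 91.8 CPM in Cbl-b-/- stimulated, 24.4 in WT stimulated, 99.3 in Cbl-b-/- unstimulated and 71.6 CPM in WT unstimulated cells. The WT stimulated library was the low one, and the other 3 lay within 1.5-fold of each other. The difference was 1.44 (1.23 to 1.65). Next to it, miR-144-3p, cut from a neighbouring hairpin of the same erythroid transcript, was below the minimum with 96 reads in Cbl-b-/- and 29 in WT stimulated cells, and 133 in Cbl-b-/- and 129 in WT unstimulated cells. Its difference was 1.72 (1.03 to 2.41). miR-486a-5p stood at 406 CPM in Cbl-b-/- and 182 in WT stimulated cells, and 769 in Cbl-b-/- and 662 CPM in WT unstimulated cells with a difference of 0.95 (0.87 to 1.03), and miR-486b-5p, whose reads cannot be separated from it, also had 0.95. The WT stimulated library was again the lowest. Of the 7 erythroid members 3 reached a mean of 10 CPM, all with a difference above 0, but the miR-486 pair among them is not 2 separate measurements. The list as a whole summed to 916 CPM in Cbl-b-/- stimulated, 390 in WT stimulated, 1653 in Cbl-b-/- unstimulated and 1409 CPM in WT unstimulated cells. Reads of the miR-486 pair enter this sum under both names, so it overstates the level. As with miR-155 and miR-31, this sum was higher in Cbl-b-/- than in WT by more with stimulation than without, and its part in those results was not tested.

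**Figure D2:**
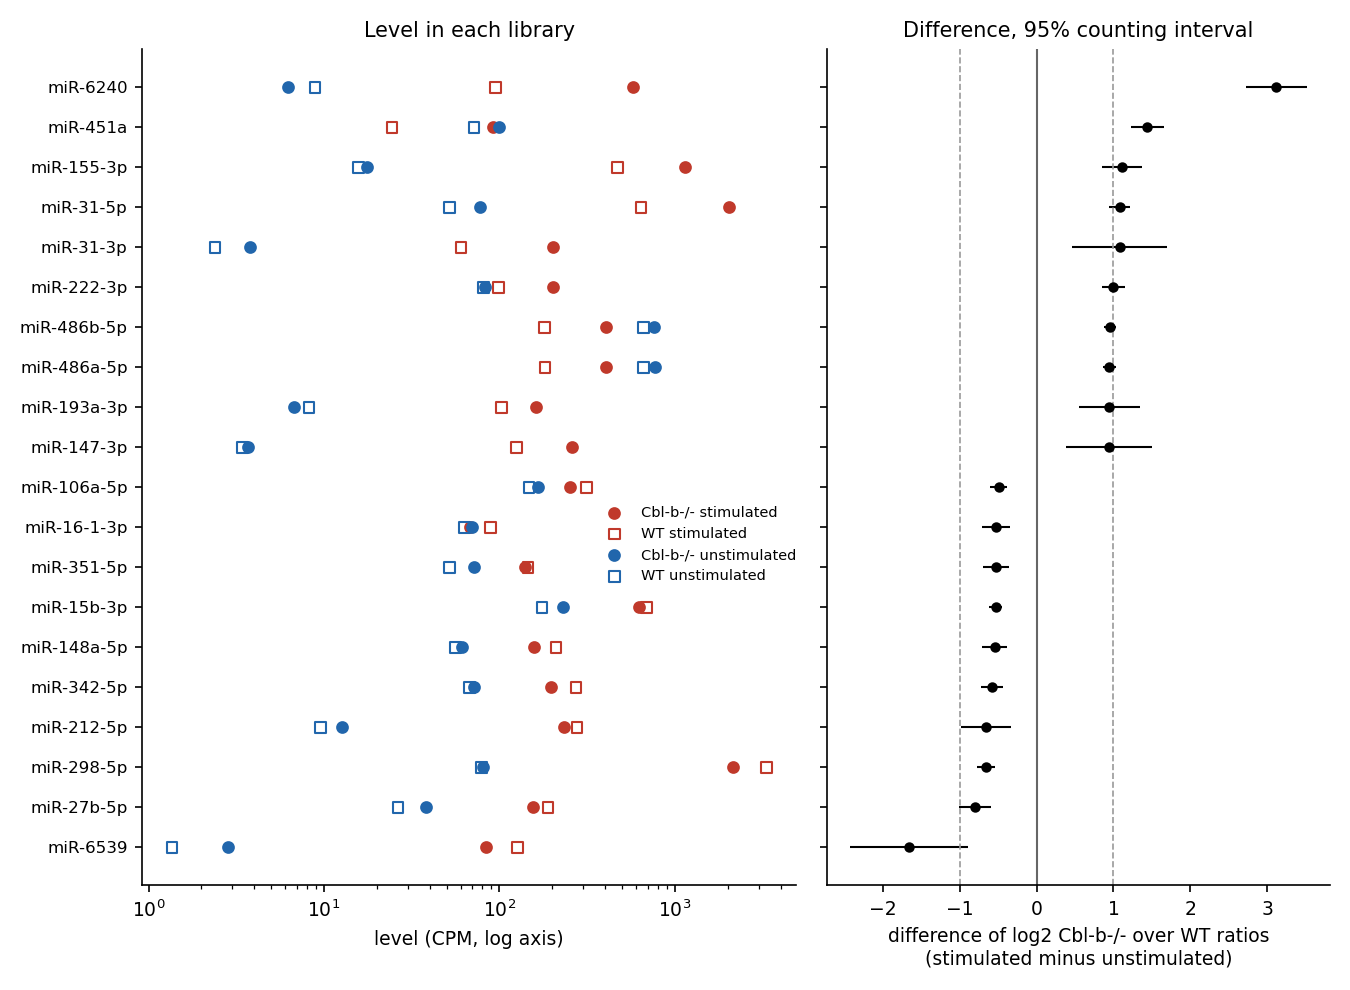
Left, level of the 10 miRNAs with the highest and the 10 with the lowest difference in each library (CPM, log axis), with filled circles for Cbl-b-/- and open squares for WT, red for stimulated and blue for unstimulated cells. Right, their difference between states with the 95% counting interval; in the upper rows the red circle lies right of the red square by more than the blue ones are apart, and in the lower rows it lies left of the square or beside it.

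Just under the 2-fold limit stood miR-222-3p, at 202 CPM in Cbl-b-/- stimulated, 99.0 in WT stimulated, 83.2 in Cbl-b-/- unstimulated and 81.3 CPM in WT unstimulated cells. Only the Cbl-b-/- stimulated library was high, and the difference was 0.997 (0.85 to 1.15), against 1.08 for miR-31-3p just inside the limit. The clustered miR-221-3p, which has the same seed and is known with miR-222 to repress the cell cycle inhibitor Cdkn1b, stood at 357 CPM in Cbl-b-/- and 193 in WT stimulated cells, and 261 in Cbl-b-/- and 224 CPM in WT unstimulated cells with a difference of 0.66 (0.57 to 0.76). miR-147-3p, known to be induced by Toll-like receptor signals in macrophages, stood at 260 CPM in Cbl-b-/- and 125 in WT stimulated cells, and 3.71 in Cbl-b-/- and 3.43 CPM in WT unstimulated cells. The Cbl-b-/- stimulated library was the high one, and the difference was 0.94 (SE 0.29). miR-193a-3p, at 161 CPM in Cbl-b-/- and 103 in WT stimulated cells, and 6.71 in Cbl-b-/- and 8.23 CPM in WT unstimulated cells, had a difference of 0.94 (0.55 to 1.34). With DESeq2 size factors these 3 (miR-222-3p, miR-147-3p and miR-193a-3p), the miR-486 pair and miR-874-3p were past the rule as well.

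Over the minimum of 50 CPM, differences below 0 other than that of miR-6539 were smaller than 1 in size. In the 10 lowest the Cbl-b-/- over WT log2 ratio ran only from -0.63 (miR-298-5p) to -0.06 (miR-351-5p) in stimulated cells. miR-27b-5p stood at 156 CPM in Cbl-b-/- stimulated, 189 in WT stimulated, 38.0 in Cbl-b-/- unstimulated and 26.4 CPM in WT unstimulated cells, a difference of -0.80 (-1.01 to -0.59). miR-298-5p, from the imprinted Gnas region, stood at 2137 CPM in Cbl-b-/- and 3316 in WT stimulated cells, and 80.4 in Cbl-b-/- and 78.8 CPM in WT unstimulated cells with a difference of -0.66 (-0.78 to -0.54). The unstimulated libraries lay close together, and among stimulated cells WT was higher. miR-212-5p, of the CREB-responsive miR-132 and miR-212 cluster, stood at 234 CPM in Cbl-b-/- and 277 in WT stimulated cells, and 12.6 in Cbl-b-/- and 9.52 CPM in WT unstimulated cells with -0.65 (-0.98 to -0.33). The other 6 of the 10 lay between -0.58 and -0.49 and were miR-342-5p, miR-148a-5p, miR-15b-3p, miR-351-5p, miR-16-1-3p and miR-106a-5p. Several are the less abundant arm of their hairpin whose main arm lay nearer 0, as with miR-342-3p at 0.20, miR-15b-5p at -0.09 and miR-148a-3p at -0.34. In all 10 of the lowest the genotype ratio lay below 1 with and above 1 without stimulation, an order that their choice by lowest difference favours. Of all 223 miRNAs 42 had this order, and for 23 the counting intervals of both ratios excluded 1. Among the 10 lowest these intervals excluded 1 for 6, namely miR-6539, miR-27b-5p, miR-212-5p, miR-15b-3p, miR-16-1-3p and miR-106a-5p.

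Between 10 and 50 CPM, a further 2 miRNAs were at least 2-fold higher and 3 lower, named here after their values were seen. The higher ones were miR-221-5p at 1.58 (1.11 to 2.05) and miR-22-5p at 1.04 (0.75 to 1.33). miR-22-3p, the main arm of the miR-22 hairpin, stood at 48576 CPM in Cbl-b-/- and 29706 in WT stimulated cells, and 16541 in Cbl-b-/- and 15633 CPM in WT unstimulated cells. Its difference of 0.63 was the highest of the 18 miRNAs above 10000 CPM. The lower ones were miR-301a-5p at -1.43, miR-26a-2-3p at -1.34 and miR-5104 at -1.17.

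Of the 17 miRNAs listed as TCR-induced, 11 had a difference above 0 and 6 below, with a median of 0.24. Of all 333 miRNAs that reached a mean of 10 CPM, 42.6% were above 0 and the median was -0.04. A total of 3 of the 17 passed the rule, all higher, where 2.24% of all 223 miRNAs over 50 CPM did so. They were the 3p arm of miR-155 and both arms of miR-31. The arms of miR-31 come from 1 hairpin and are not independent measurements. These 3 are also 3 of the 6 past the rule in all. The erythroid list held 1 more, miR-451a, and no other list held any. The TCR-induced list was not uniform. The hypoxia-induced miR-210-3p (0.31, 0.07 to 0.55) and the miR-183 group, with miR-96-5p at 0.53, miR-183-5p at 0.24 and miR-182-5p at 0.13, lay above the median of all miRNAs. miR-132-3p at 0.04, miR-210-5p at -0.04 and miR-132-5p at -0.10 lay near 0. miR-212-3p lay at -0.15 and miR-212-5p, the lowest of the list, at -0.65. miR-21a-5p, the most abundant miRNA of stimulated cells, lay at -0.27 and its 3p arm at -0.39. miR-21a-5p stood at 221297 CPM in Cbl-b-/- stimulated and 219041 in WT stimulated cells, but at 79972 in Cbl-b-/- unstimulated and 65605 CPM in WT unstimulated cells. Its genotypes were apart without stimulation and close together with it.

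Lists of proliferation and resting cell miRNAs had genotype ratios that differed little between the states, although levels in several of these lists changed with stimulation. The median stimulated over unstimulated log2 ratio of the resting T cell list was -1.12 in Cbl-b-/- and -1.11 in WT cells. That of the miR-17 to miR-92a list was 0.88 in Cbl-b-/- and 1.18 in WT cells. The miR-17 to miR-92a list with its paralogs, linked to lymphocyte growth, had 4 of 13 members above 0, a median of -0.16 and 0 past the rule. miR-17-5p lay at -0.21 and miR-92a-3p at 0.01. The resting T cell list had 4 of 10 measured members above 0 and a median of -0.09, with miR-150-5p at 0.23, miR-342-5p at -0.58 and miR-99a-5p at 0.70 (0.07 to 1.32). For comparison, 42.6% of all 333 miRNAs at 10 CPM or more were above 0, and their median was -0.04. Medians were -0.10 for let-7, -0.03 for miR-181, -0.12 for miR-30, -0.09 for miR-15 and miR-16, and 0.03 for miR-23, miR-27 and miR-24. In let-7 9 of 9 members lay below 0, but only from -0.14 to -0.02. The NF-kB feedback and regulatory T cell list had a median of -0.01, with miR-146a-5p at -0.10. Under DESeq2 size factors the medians of let-7, resting T cells, miR-181, miR-15 with miR-16, and NF-kB feedback (this last also with TMM factors) were above 0, and that of miR-23, miR-27 and miR-24 was below 0 without the 10 most abundant miRNAs.

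Several miRNAs with large genotype ratios had these in both states. miR-99a-5p stood at 50.6 CPM in Cbl-b-/- stimulated and 1.91 in WT stimulated cells, and at 162 in Cbl-b-/- unstimulated and 9.91 CPM in WT unstimulated cells. miR-125b-5p, which has a locus in the same cluster, had log2 ratios of 4.09 in stimulated and 4.01 in unstimulated cells and a difference of 0.08 (-0.43 to 0.60). The imprinted Dlk1-Dio3 list had 4 of 40 listed members at 10 CPM or more, all higher in Cbl-b-/- in both states. All 4 had a difference below 0 (median -0.36), where 42.6% of all 333 miRNAs at this level were above 0. The intervals of miR-411-5p (-0.65 to 0.14) and miR-434-3p (-0.72 to 0.32) included 0. From the same list, miR-127-3p stood at 98.3 CPM in Cbl-b-/- stimulated, 35.3 in WT stimulated, 309 in Cbl-b-/- unstimulated and 80.3 CPM in WT unstimulated cells. The ratio was wide in both pairs, log2 1.48 with and 1.94 without stimulation, for a difference of -0.47 (-0.65 to -0.29). The endothelial miR-126a lay below WT in unstimulated Cbl-b-/- cells. miR-126a-5p stood at 287 CPM in Cbl-b-/- and 291 in WT stimulated cells, and 60.9 in Cbl-b-/- and 100.2 CPM in WT unstimulated cells, with a difference of 0.70 (0.56 to 0.84), and miR-126a-3p had one of 0.54 (0.20 to 0.88). The myeloid miR-223-3p lay at -0.04 (-0.18 to 0.10). The stromal list had a median of 0.15, and the epithelial list one of 0.04, which was below 0 without the 10 most abundant miRNAs. The lists of miR-193 with miR-365, of miR-296 with miR-298, of miR-34 with miR-449 and of the miR-99a cluster had medians of 0.68, -0.46, -0.17 and 0.17 over 2, 3, 3 and 4 measured members.

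**Figure D3:**
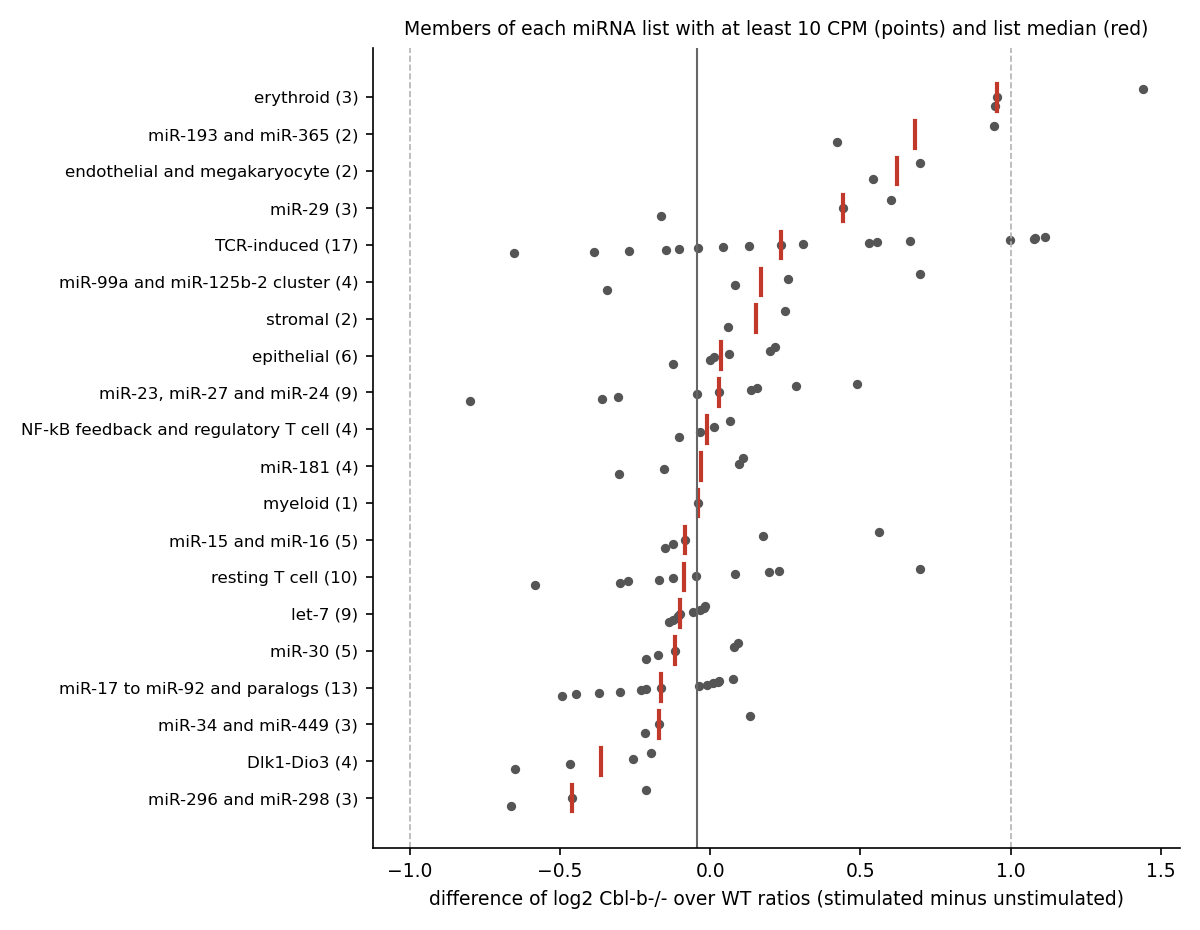
Difference between states of each list member with a mean of at least 10 CPM (points) and the median of the list (red), with the number of measured members in brackets; the solid line is the median of all 333 such miRNAs and the dashed lines mark 2-fold. The erythroid list, in which miR-486a-5p and miR-486b-5p share reads, lies at the top with a median of 0.95. The miR-296 and miR-298 list lies at the bottom with -0.46, while the TCR-induced list spreads from -0.65 to 1.11.

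Most clusters of neighbouring hairpins had all measured members on 1 side of 0. This trait alone therefore does not set the clusters named below apart. Of all 333 measured miRNAs, 42.6% lay above 0, and their median was -0.04. Hairpins of 1 strand within 10 kb were joined, and 19 such clusters had at least 3 measured mature miRNAs from at least 2 hairpins; mature sequences with several loci were left out. The miR-221 and miR-222 cluster on chromosome X had the highest median, 1.00 over 3 mature miRNAs. A cluster in an intron of Clcn5, at chrX:7237683-7248497 on the minus strand, had 6 of 6 above 0, from 0.31 to 0.74 with a median of 0.46. Clcn5 encodes a chloride and proton exchanger, and the cluster was picked out after its values were seen. Its miR-501-3p stood at 268 CPM in Cbl-b-/- stimulated, 219 in WT stimulated, 47.2 in Cbl-b-/- unstimulated and 64.3 CPM in WT unstimulated cells. miR-188-5p stood at 170.5 CPM in Cbl-b-/- and 135.0 in WT stimulated cells, and 17.5 in Cbl-b-/- and 23.0 CPM in WT unstimulated cells. In both the genotype order turned between the states, with differences of 0.74 (0.58 to 0.90) and 0.73 (0.48 to 0.99). miR-500-3p, miR-362-3p and miR-532-3p of this cluster lay at 0.45, 0.46 and 0.47, and miR-532-5p, the other arm of the hairpin of miR-532-3p, at 0.68 (0.63 to 0.72). The miR-183, miR-96 and miR-182 cluster on chromosome 6 had 4 of 4 above 0 with a median of 0.38.

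At the other end the miR-106a to miR-363 cluster on chromosome X had 6 of 6 below 0 and a median of -0.47. The share above 0 among all 333 measured miRNAs was 42.6%, so values below 0 were the more common ones. Its paralog on chromosome 14, the miR-17 cluster in Mir17hg, had a median of -0.15 with 2 of 8 above 0. The cluster of miR-296 and miR-298 on chromosome 2 had 3 of 3 below 0 and a median of -0.46. The members of a cluster are cut from 1 primary transcript and are not independent measurements. The directions named here held with TMM and DESeq2 size factors and without the 10 most abundant miRNAs.

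**Figure D4:**
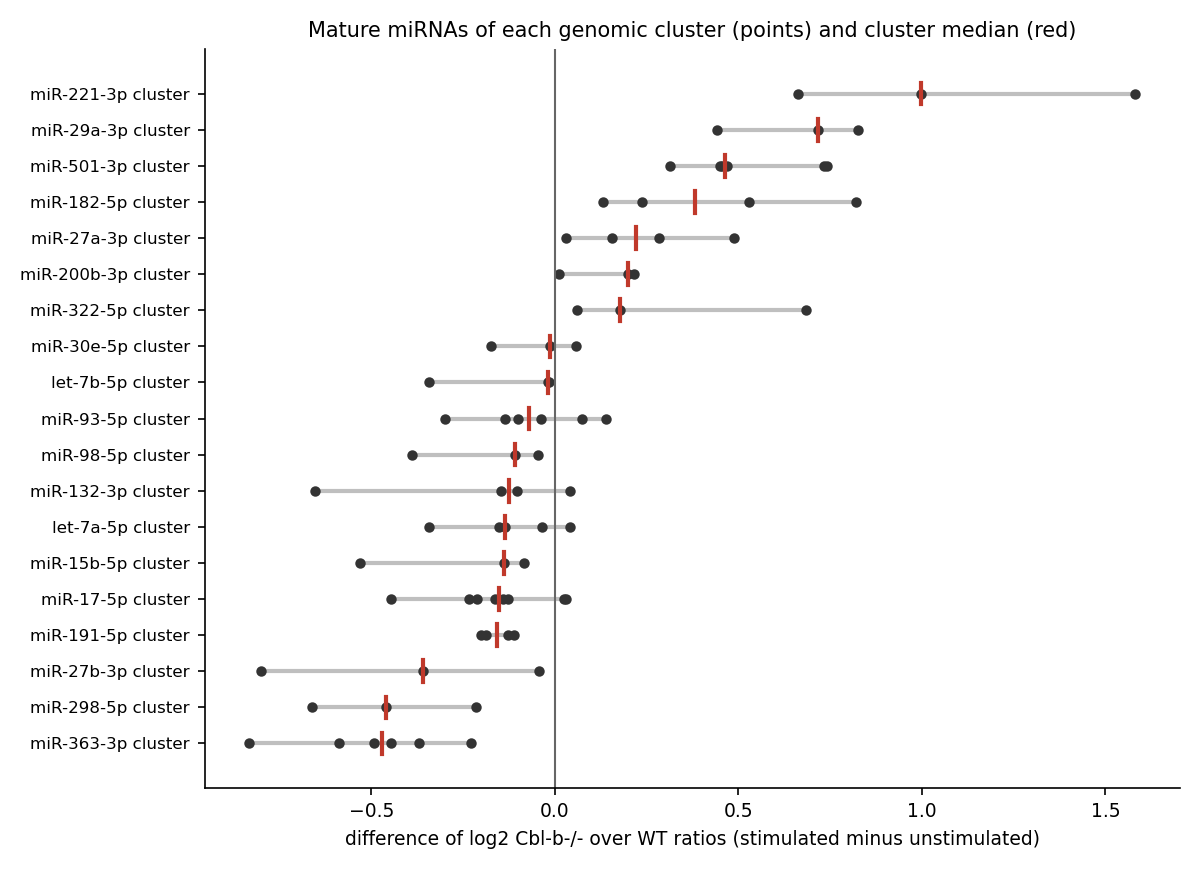
Difference between states of the mature miRNAs of 19 genomic clusters (points), with their range (grey) and median (red); each cluster is named by its most abundant measured member. Clusters at the top, led by that of miR-221-3p with a median of 1.00, and at the bottom, ending with that of miR-363-3p with -0.47, have all members on 1 side of 0.

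Members with a common seed could differ. The 26 seeds shared by at least 2 measured miRNAs covered 74 miRNAs, and the median range of the difference within a seed was 0.28. The widest was the miR-29 seed, AGCACCA, with a range of 0.77. miR-29 represses T-bet and interferon gamma in T cells of the mouse. miR-29a-3p stood at 10505 CPM in Cbl-b-/- stimulated, 7613 in WT stimulated, 10815 in Cbl-b-/- unstimulated and 10643 CPM in WT unstimulated cells. The WT stimulated library was the low one, for a difference of 0.44 (0.43 to 0.46). miR-29b-3p, at 1293 CPM in Cbl-b-/- and 836 in WT stimulated cells, and 587 in Cbl-b-/- and 575 CPM in WT unstimulated cells, had one of 0.60 (0.54 to 0.66). miR-29c-3p, at 164 CPM in Cbl-b-/- and 188 in WT stimulated cells, and 324 in Cbl-b-/- and 330 CPM in WT unstimulated cells, lay on the other side, at -0.16 (-0.27 to -0.06), and its interval does not meet those of the other two. The hairpin of miR-29a lies at chr6:31062660-31062747 and that of miR-29c at chr1:195037547-195037634, while miR-29b has a copy beside each. miR-29a-5p, specific to chromosome 6, lay at 0.72 (0.55 to 0.89).

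The same held for the paralogous clusters of miR-23, miR-27 and miR-24. Among all 333 measured miRNAs 42.6% lay above 0, with a median of -0.04, and most clusters had all measured members on 1 side of 0. The chromosome 8 copy had 4 of 4 measured mature miRNAs above 0 with a median of 0.22. The chromosome 13 copy had 3 of 3 below 0 with a median of -0.36. Of these, miR-27a-3p turned below 0 without the 10 most abundant miRNAs and miR-24-1-5p above 0 with DESeq2 size factors, while both medians kept their sign. miR-27a-3p, of chromosome 8, stood at 3344 CPM in Cbl-b-/- stimulated, 2497 in WT stimulated, 1528 in Cbl-b-/- unstimulated and 1165 CPM in WT unstimulated cells, and its difference was 0.03. miR-27b-3p, of chromosome 13, stood at 65709 CPM in Cbl-b-/- and 69037 in WT stimulated cells, and 55645 in Cbl-b-/- and 45593 CPM in WT unstimulated cells, with -0.36 (-0.37 to -0.35). The mature forms of each paralog pair are near copies, so reads may have been divided between them by the counting. The arm-specific miR-24-2-5p of chromosome 8 lay at 0.49 (0.40 to 0.58), and miR-24-1-5p of chromosome 13 at -0.04 (-0.33 to 0.24). Members of 1 cluster with a common seed lay on the same side of 0 in some cases, with 0.66 for miR-221-3p and 0.997 for miR-222-3p, and 0.45 for miR-500-3p and 0.74 for miR-501-3p. They lay on opposite sides in others, with -0.30 for miR-106b-5p and 0.07 for miR-93-5p, and -0.15 for miR-212-3p and 0.04 for miR-132-3p. Both of these values above 0 are smaller than the shift of -0.08 that sums without the 10 most abundant miRNAs bring.

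The 2 arms of a hairpin give separate readings of 1 precursor. In 87 hairpins with both arms at 10 CPM or more and at least 10 reads in each library, the arms had the same sign in 66 (75.9%) and lay within 1.5-fold of each other in 79. The correlation of the 5p with the 3p differences was 0.59 (Pearson) and 0.50 (Spearman) over these hairpins, which is a description over hairpins that share libraries and in some cases reads. The arms of miR-31 were equal, and those of miR-155 had a 5p minus 3p gap of -0.56 (-0.82 to -0.30), the less abundant 3p arm being higher. In miR-342 the less abundant 5p arm was the lower one, with a gap of -0.78 (-0.93 to -0.63). In miR-301a the 5p arm lay lower too, with a gap of -1.10 (-1.81 to -0.40). Less abundant arms had a median difference of -0.14 and main arms one of -0.07, and the less abundant arm was the lower one in 54 of 87 hairpins.

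**Figure D5:**
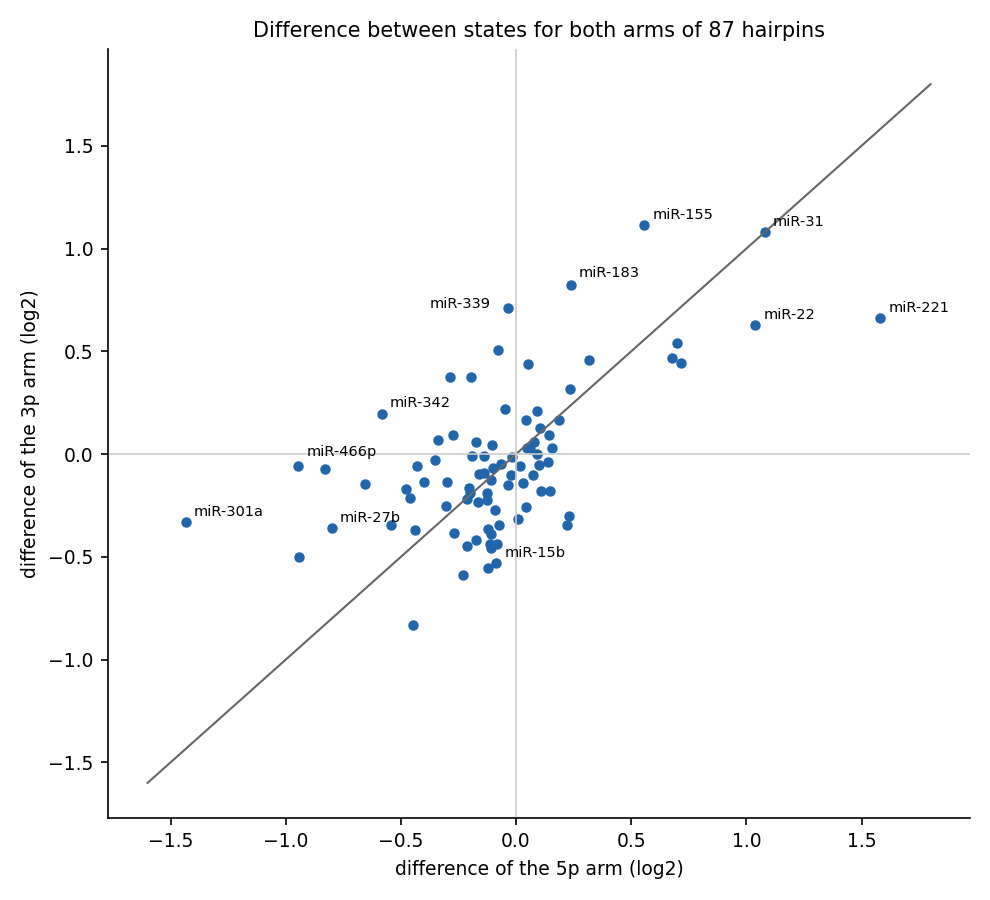
Difference between states of the 3p arm (vertical axis, log2) against the 5p arm (horizontal axis, log2) for 87 hairpins; the diagonal marks equal arms. miR-31 lies on the diagonal at 1.08 in both, miR-155 above it with 0.56 and 1.11, and miR-221 below it with 1.58 and 0.66.

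The spread of the difference was widest among the miRNAs that were most raised in stimulated cells. The mean of the stimulation log2 ratios of both genotypes, which uses the same libraries as the difference, placed 24 miRNAs at 8-fold or more higher after stimulation. These had a median difference of 0.09 and a robust SD of 0.62, and they held 4 of the 5 miRNAs past the rule and higher and the 1 lower. Over all 223 miRNAs 2.69% passed the rule. Several of the 24 had few unstimulated reads and a large counting error, with an SE of 0.39 for miR-6539, 0.31 for miR-31-3p and 0.29 for miR-147-3p. The median SE over the 223 was 0.06, and the part of counting error in the spread of these 24 was not tested. The 113 miRNAs within 2-fold had a median of -0.06 and a robust SD of 0.18, with miR-451a the 1 past the rule. The 54 miRNAs at 2-fold to 8-fold higher had a median of -0.11, and the 32 at least 2-fold lower one of 0.03. GC content showed little relation to the difference. That of the 181 miRNAs with a sequence ran from 27.3 to 73.9%, and its rank correlation with the difference (Spearman) was 0.06.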

How the data were processed

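Small RNA libraries of total RNA were made with a NEBNext kit, per the labels' protocols, 1 for each genotype and state. The authors deposited 2 tables, joined here on the miRNA name. Raw read counts per known mature miRNA, per the file headers, were the basis of every value. The tables also hold, per the file headers, a normalized count, which is a score equal to the count over 1 constant per library, an unadjusted p-value, a linear fold ratio and a log2 ratio of WT over Cbl-b-/-. Of these the constants alone were used, as alternative library totals. Per the submitters' processing notes, cutadapt 1.7.1 and the build GRCm38.p5 were used, with roles unstated. An aligner, a counting method and a miRNA release are named in none of the sources used here. Of the 223 miRNAs over 50 CPM, 12 in 6 groups had counts identical to another's, so some reads were counted for several miRNAs.

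Counts were divided by library sums (CPM). The difference between states is the log2 ratio of Cbl-b-/- to WT in stimulated minus that in unstimulated cells. No pseudocount was added, and a miRNA with a count of 0 in any library gave no value. The 95% intervals are normal approximations from the reciprocal counts, checked on simulated data. The simulated counts carried counting error alone, as the intervals assume, so that check could not bear on error between libraries. Counting error alone is covered, and PCR copies may make the intervals too narrow. edgeR 4.0.16 and DESeq2 1.42.0 gave alternative size factors, and no test was run because 4 coefficients leave 0 residual degrees of freedom. Python 3.11.15 with pandas 2.3.3 was used. The robust SD is 1.4826 times the median absolute deviation. Sequences and hairpins came from RefSeq (GRCm38.p6), host genes from GENCODE on the same build.

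The miRNAs named were the 10 highest and 10 lowest differences over the minimum with an interval without 0, their other arms, the 4 most abundant members of each list and the 5 most abundant of each library. Further members of clusters, seed groups and arm pairs, miR-874-3p, the miRNAs at 10 to 50 CPM past 2-fold, and those whose genotype ratio turned between states were added after their values were seen. All lists and comparisons were chosen with earlier results of these data known.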

Additional observations from a re-analysis of the deposited data

Results flagged for a closer look

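The genotype ratio of 41 of the 333 miRNAs with a mean of 10 CPM or more pointed one way in stimulated and the other way in unstimulated cells, with counting intervals of both log2 ratios on opposite sides of 0. Each group holds 1 library, so the difference was not tested. In 11 of them Cbl-b-/- was higher than WT with stimulation and lower without it. With their difference between states these were miR-6240 (3.12), miR-221-5p (1.58), miR-874-3p (0.91), miR-501-3p (0.74), miR-188-5p (0.73), miR-339-3p (0.71), miR-450b-5p (0.68), miR-532-5p (0.68), miR-24-2-5p (0.49), miR-181a-5p (0.0945) and miR-93-5p (0.0748). In the other 30 Cbl-b-/- was lower than WT with stimulation and higher without it. These were miR-6539 (-1.66), miR-301a-5p (-1.43), miR-26a-2-3p (-1.34), miR-466p-5p (-0.95), miR-877-5p (-0.94), miR-466a-5p (-0.83), miR-27b-5p (-0.80), miR-212-5p (-0.65), miR-15b-3p (-0.53), miR-16-1-3p (-0.52), miR-1249-3p (-0.51), miR-106a-5p (-0.49), miR-296-5p (-0.46), let-7g-3p (-0.45), miR-17-3p (-0.45), miR-20b-5p (-0.45), miR-320-3p (-0.42), miR-363-3p (-0.37), miR-27b-3p (-0.36), miR-148a-3p (-0.34), miR-3964 (-0.34), miR-301a-3p (-0.33), miR-23b-3p (-0.31), miR-106b-5p (-0.30), miR-669p-5p (-0.29), miR-669a-5p (-0.29), let-7j (-0.23), let-7a-5p (-0.14), miR-101b-3p (-0.13) and let-7g-5p (-0.11). Of the 41, 32 had a mean of at least 50 CPM, 9 in the first set and 23 in the second. The shift of 0.11 that DESeq2 size factors add to every difference is as large as or larger than those of miR-181a-5p, miR-93-5p and let-7g-5p. Whether a ratio turns depends on the shift within each state, and the turns were not recounted under other scalings. Unstimulated log2 ratios were small for, among others, miR-181a-5p (-0.06), miR-93-5p (-0.04), let-7a-5p (0.07), let-7g-5p (0.04) and miR-148a-3p (0.04).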

How the results depend on the processing

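The count of 5 miRNAs higher and 1 lower was the same with 0.5 added to each count, with identical counts kept once and with the authors' library totals. TMM factors gave 6 higher and 0 lower, DESeq2 size factors 11 and 0 with a median difference of 0.070 in place of -0.04, and sums without the 10 most abundant miRNAs 3 and 1. Level minimums of 10 CPM, 200 CPM and none gave 7 and 4, 2 and 0, and 22 and 20. A minimum of 50 reads in each library gave 7 and 2, and fold limits of 1.5 and 3 gave 21 and 4, and 1 and 1. miR-6240 and miR-155-3p were past the rule under all 4 scalings tried besides library sums, as was miR-451a. Exact conditional intervals, added after the data were seen as were the cluster scalings, left all 6 past the rule. Summing family members changed no call, but it adds no reads to miR-155, miR-31, miR-6240 or miR-6539 and so could not change theirs. None of the 6 changed sign under any alternative, which the scalings could not have brought about, since their largest shift was about 0.11. The myeloid list gained a member under 3 scalings, with medians of 0.21 (TMM), 0.32 (DESeq2) and 0.12 (without the 10 most abundant). No paired analysis was possible because each group holds 1 library, and for the same reason no replicate could be left out. Depth limits miRNAs with few unstimulated reads, such as miR-31-3p, miR-147-3p and miR-6539.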
